A study of Mus musculus with 5 samples.

Results

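The genes described here are 31 of the 28001 genes in the count tables: 18 enzymes of sterol synthesis, 7 of fatty acid synthesis, 2 that supply acetyl-CoA to both routes, and 4 genes that regulate them or move sterol within the cell. They were chosen by name as pathway members after their levels in these libraries had been seen, across time points, across cell classes and in day 2 cells with and without mitotic transcripts. Those levels chose the genes, so they are given as descriptions with no test. The cells came from the hindlimb muscle of C57BL/6J mice of genotype Hic1CreERT2/CreERT2;Rosa26LSLtdTomato/+, so both copies of Hic1 carried the recombinase, and every group shared these alleles. Each animal received 2.5 mg of tamoxifen in 100 uL of sunflower oil daily on 5 days from 8 weeks of age, followed by 10 days of washout, so the tdTomato label marks cells that expressed Hic1 at that time and the descendants of those cells. One library held uninjured (quiescent) muscle and the others muscle taken 1, 2, 4 and 14 days after injection of notexin, a snake venom phospholipase that destroys muscle fibres. With 1 library per group, time point and library cannot be told apart, and no difference between time points has a replicate check. How many animals went into each library is not given in the sources used here.

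Cells make cholesterol from acetyl-CoA through the mevalonate pathway, which builds isoprenoid units, joins them into squalene, closes squalene into lanosterol and then trims lanosterol to cholesterol. Fatty acid synthesis starts from the same acetyl-CoA. Transcription of both sets of enzymes is driven by the SREBP factors, encoded by Srebf1 and Srebf2, which are held in the endoplasmic reticulum by INSIG proteins when sterol is plentiful and released to the nucleus when it is scarce.

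The promoters of 24 of the 31 genes were matched by symbol in the RefSeq table for GRCm38.p6, and the 250 bases before the transcription start were searched on both strands. Of these, 4 are shown because they stand for the contrast that runs through the results: Hmgcs1 and Idi1, whose levels rose at day 2 and fell below the quiescent level at day 4, Srebf2, which was lower after injury, and Ebp, the sterol enzyme least tied to the others across cells after injury. Capitals mark 3 motifs and their reverse complements: the core of a sterol response element (TCACNCCA), the inverted CCAAT box (ATTGG) and the GC box (GGGCGG). In the 4 windows no marked match overlaps another.
Hmgcs1, chr13:119690101-119690350, plus strand: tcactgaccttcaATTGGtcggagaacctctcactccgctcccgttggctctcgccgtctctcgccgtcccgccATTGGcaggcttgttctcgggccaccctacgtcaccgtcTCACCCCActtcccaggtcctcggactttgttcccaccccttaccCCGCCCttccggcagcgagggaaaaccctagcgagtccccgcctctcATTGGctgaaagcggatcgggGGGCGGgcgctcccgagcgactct
Idi1, chr13:8885356-8885605, plus strand: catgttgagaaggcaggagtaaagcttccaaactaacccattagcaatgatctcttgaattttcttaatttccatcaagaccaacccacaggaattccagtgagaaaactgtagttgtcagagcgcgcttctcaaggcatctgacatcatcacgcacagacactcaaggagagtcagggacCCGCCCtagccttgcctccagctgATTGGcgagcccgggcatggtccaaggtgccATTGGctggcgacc
Srebf2, chr15:82147019-82147268, plus strand: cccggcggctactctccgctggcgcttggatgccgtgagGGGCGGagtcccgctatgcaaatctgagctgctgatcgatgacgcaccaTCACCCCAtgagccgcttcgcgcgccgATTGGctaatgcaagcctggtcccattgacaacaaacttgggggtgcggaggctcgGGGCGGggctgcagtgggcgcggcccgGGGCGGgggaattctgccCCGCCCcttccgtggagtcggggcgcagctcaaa
Ebp, chrX:8193513-8193762, minus strand: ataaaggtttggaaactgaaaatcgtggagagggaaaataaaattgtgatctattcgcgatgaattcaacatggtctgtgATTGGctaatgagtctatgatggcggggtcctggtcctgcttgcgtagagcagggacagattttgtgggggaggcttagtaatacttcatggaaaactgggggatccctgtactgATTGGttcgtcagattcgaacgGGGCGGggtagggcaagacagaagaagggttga
The inverted CCAAT box was found in 19 of the 24 members (14 of the 15 sterol enzymes with a promoter) and in 37.5% of 27025 genes. The GC box was found in 20 of the 24 (14 of the 15) and in 35.4% of genes. The sterol response core was found in Hmgcs1, Msmo1 and Srebf2, 3 of the 24, and in 4.20% of genes. Ebp carries both the inverted CCAAT box and the GC box, as Hmgcs1, Idi1 and Srebf2 do. For Hmgcs1, Lss, Nsdhl, Sc5d and some starts of Srebf1, the first bases of the RefSeq start were not found whole in a GENCODE transcript. Their windows, which are in the counts above, rest on the RefSeq start and strand alone. A match is a description of these letters only.

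The 5 libraries held 17085 cells after filtering, of 17213 barcodes, and 8043771 to 44552329 UMIs, the counts of distinct transcript molecules. Any pair of libraries shared 8 to 26 cell barcodes, at most 0.968% of the smaller library. Cells with at least 5 UMIs of Tnmd, Fmod, Kera and Chad were taken as tenocytes, those with at least 5 of Rgs5, Kcnj8, Abcc9 and Higd1b as mural cells, and the rest as progenitor cells. Of the progenitor cells, 99.4% to 99.96% had a UMI of Dcn, 86.7% to 99.3% of Col1a1 and 61.1% to 82.1% of Pdgfra, and the 4 adipocyte markers summed to 0.75 to 4.29 CPM, UMIs scaled to the same total in every library. Progenitor cells numbered 1900 in the quiescent library and 4536, 2407, 3810 and 2424 at days 1, 2, 4 and 14, with medians of 3883, 8788, 11165, 7072 and 4938 UMIs per cell. Levels below are CPM of UMIs summed over the cells of a class, and intervals are 95% intervals that cover counting error only. A gene was called higher or lower at a 2-fold ratio where the higher of the summed levels reached 20 CPM.

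Sterol synthesis transcripts rose after injury to a peak at day 2 and fell below the uninjured level at day 4. In progenitor cells the 18 enzymes summed to 806 CPM before injury and to 1182, 2323, 505 and 789 CPM at days 1, 2, 4 and 14. Against quiescent, the sum was 1.47-fold higher at day 1 (1.43 to 1.51), 2.88-fold higher at day 2 (2.81 to 2.96) and 1.59-fold lower at day 4 (1.55 to 1.64). All 18 enzymes were at their highest in the day 2 library, and 12 of the 18 were at their lowest in the day 4 library. At day 14 the sum lay within 1.02-fold of quiescent. Fewer synthesising cells and less RNA per cell cannot be told apart in such sums, and the values per cell are given further on. Another choice of library scaling raised the median gene against quiescent on the log2 scale: TMM in edgeR by 0.31, 0.17, 0.10 and 0.01 at days 1, 2, 4 and 14, and DESeq2 by 0.36, 0.20, 0.09 and 0.01. The sterol sum kept its direction at days 1, 2 and 4 under both.

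**Figure D1:**
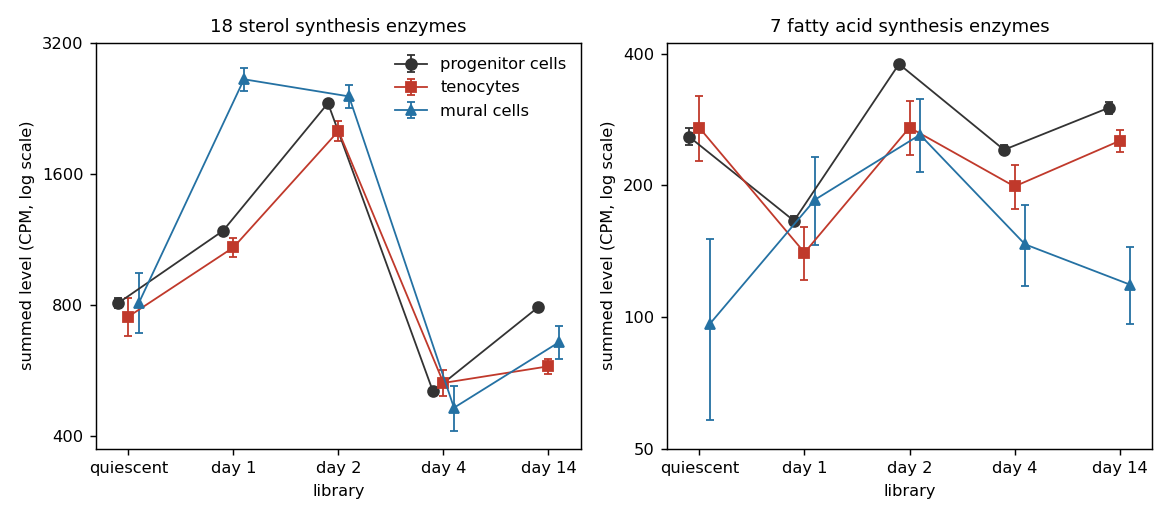
Summed level in CPM on a log axis (vertical) of the 18 sterol synthesis enzymes (left) and the 7 fatty acid synthesis enzymes (right) in each of the 5 libraries (horizontal), for progenitor cells, tenocytes and mural cells; bars are 95% Poisson intervals for counting error. The sterol sum in progenitor cells goes from 806 to 2323 CPM between quiescent and day 2 and stands at 505 CPM at day 4, and in mural cells it is already at 2637 CPM at day 1.

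Of the 27 members tested at day 2 against quiescent, 16 were at least 2-fold higher and none lower. Over all 6074 genes tested, 11.3% were higher and 17.4% lower. The rule for the members used this contrast, so nothing is read from that difference. The median log2 ratio was 1.38 over the tested members and -0.03 over all genes tested. The 16 were Acat2, Hmgcs1, Mvk, Pmvk, Mvd, Idi1, Fdps, Fdft1, Sqle, Lss, Cyp51, Msmo1, Nsdhl and Dhcr7 of the sterol route, the sterol carrier Stard4 and the elongase Elovl6.

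The early, mevalonate part of the route rose at nearly every step. Acat2, which joins acetyl-CoA units, stood at 16.6 CPM in the quiescent library and at 28.7, 98.4, 18.5 and 19.998 CPM at days 1, 2, 4 and 14. Hmgcs1, which makes HMG-CoA, stood at 91.3, 131, 244, 49.8 and 102 CPM in the same order, and Mvk, the mevalonate kinase, at 33.0, 41.7, 98.4, 20.8 and 23.1 CPM. Mvd, which decarboxylates mevalonate diphosphate, stood at 11.4, 31.9, 73.3, 15.04 and 16.9 CPM. Mvd had the largest ratio of the 31 genes at day 2, 6.46-fold over quiescent (5.19 to 8.14), followed by Acat2 at 5.95-fold (4.96 to 7.19). Mvd and Cyp51 were also the members called higher at day 1, at 2.81-fold (2.25 to 3.55) and 2.68-fold (2.34 to 3.09), 2 of 25 tested against 15.5% of 6045 genes. The count was 6 with TMM scaling and 7 with DESeq2.

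Further along, Idi1, the isomerase that readies isoprenoid units for joining, stood at 61.6, 94.8, 178, 18.2 and 54.3 CPM. Fdps, which joins the units into farnesyl diphosphate, stood at 141, 216, 558, 72.0 and 141 CPM. Fdps gave 17.5% of all sterol enzyme UMIs in the quiescent library and 24.0% at day 2. Fdft1, the squalene synthase, stood at 29.0, 56.1, 96.0, 18.2 and 31.8 CPM. Sqle, which adds the oxygen needed for ring closure, stood at 59.9, 114, 143, 19.7 and 40.2 CPM. These 4 genes share the order of libraries from day 2 down through day 1 to day 4, and their day 4 values lie below their quiescent values. Lss, which closes the ring to lanosterol, reached 20.4 CPM at day 2 from 3.83 CPM in the quiescent library, a 5.32-fold ratio (3.65 to 8.07).

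Among the enzymes that turn lanosterol into cholesterol, Cyp51, the demethylase of the first trimming steps, stood at 30.5, 81.8, 146, 25.1 and 41.4 CPM. Msmo1, which oxidises the remaining methyl groups, stood at 79.1, 137, 194, 31.04 and 83.4 CPM. Nsdhl, which acts after Msmo1, stood at 26.3, 25.4, 74.1, 17.8 and 28.4 CPM. By total UMIs it rose between days 1 and 2, by 2.91-fold (2.71 to 3.13), and not before. Pmvk, the phosphomevalonate kinase of the early route, had the same late timing by total UMIs, at 26.5, 23.2, 81.7, 50.2 and 29.6 CPM. TMM and DESeq2 scaling raise day 1 log2 ratios by 0.31 and 0.36, which puts both genes above quiescent at day 1. Dhcr7, which removes a ring double bond late in the route, stood at 10.9, 15.4, 34.2, 13.6 and 16.5 CPM. Tm7sf2, a sterol reductase, stayed between 1.34 and 8.50 CPM in all 5 libraries, under the limit for a call.

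The sterol enzymes tested at day 2 that did not reach 2-fold were Hsd17b7, Ebp and Sc5d, all of the later route. Hsd17b7, a reductase working beside Nsdhl, stood at 23.0, 26.9, 28.0, 4.56 and 14.8 CPM, a 1.22-fold day 2 ratio (1.03 to 1.45). Ebp, which shifts a ring double bond, stood at 88.1, 80.7, 142, 101 and 84.6 CPM, a 1.61-fold day 2 ratio (1.48 to 1.75). Sc5d, the desaturase next after it, stood at 72.6, 69.8, 105, 26.7 and 53.6 CPM, a 1.44-fold day 2 ratio (1.32 to 1.59). Hsd17b7 and Sc5d thus moved little on the way up and far on the way down, while Ebp moved little in both directions. As the other transcripts fell, Ebp became the most counted sterol enzyme at day 4, with 19.9% of the sterol UMIs.

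**Figure D2:**
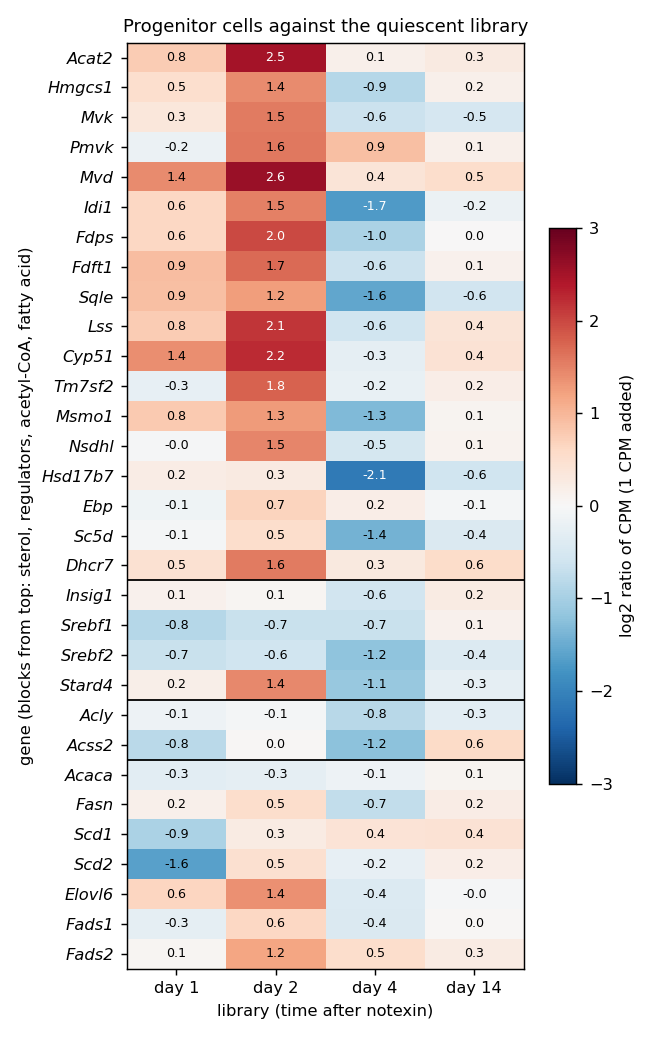
Log2 ratio of CPM (1 CPM added to both) of each of the 31 genes (vertical, in blocks of sterol enzymes, regulators, acetyl-CoA supply and fatty acid enzymes) in progenitor cells of days 1, 2, 4 and 14 (horizontal) against the quiescent library; red is higher and blue is lower. Of the sterol enzymes, 14 are past 2-fold with 20 CPM at day 2 (Tm7sf2 is past 2-fold below 20 CPM), and Hsd17b7 has the lowest value at day 4, -2.11.

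From day 1 to day 2, 11 of 27 members tested were at least 2-fold higher, against 9.68% of 5423 genes. The next interval held the largest changes. From day 2 to day 4 the sterol sum was 4.60-fold lower (4.52 to 4.68), and 19 of 27 members tested were at least 2-fold lower, against 3.77% of 5542 genes. Idi1 was 9.76-fold lower (8.94 to 10.7), Lss 9.28-fold (7.20 to 12.1), Fdps 7.75-fold (7.41 to 8.11) and Sqle 7.29-fold (6.69 to 7.96). Pmvk and Ebp, the tested sterol enzymes outside the 19, were 1.63-fold and 1.41-fold lower.

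Against quiescent, 7 of 22 members tested were at least 2-fold lower at day 4 (9.92% of 5945 genes) and none was higher (6.34%). Hsd17b7 was 5.04-fold lower (4.00 to 6.37), Idi1 3.38-fold (2.97 to 3.83), Sqle 3.05-fold (2.69 to 3.45), Sc5d 2.72-fold (2.43 to 3.03) and Msmo1 2.55-fold (2.29 to 2.83). Srebf2 and Stard4 completed the 7. Pmvk went the other way, 1.89-fold higher at day 4 than in the quiescent library (1.63 to 2.21). By day 14, none of the 23 members tested was 2-fold higher or lower than quiescent, where 1.04% and 0.643% of 5757 genes were. From day 4 to day 14, Hmgcs1, Idi1, Sqle, Msmo1, Sc5d and Fasn were at least 2-fold higher, 6 of 21 tested against 8.01% of 5843 genes.

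The SREBP genes lacked the day 2 peak of the enzymes. Srebf2, whose product mainly drives sterol genes, stood at 45.4 CPM in the quiescent library and at 28.3, 29.5, 19.2 and 34.2 CPM at days 1, 2, 4 and 14. Srebf1, whose products mainly drive fatty acid genes, stood at 44.6, 24.3, 27.7, 27.5 and 48.7 CPM. Both were lower than quiescent on each of days 1, 2 and 4. At day 2 Srebf2 was 1.54-fold lower (1.36 to 1.75) and Srebf1 1.61-fold lower (1.42 to 1.83). Insig1, the SREBP retention gene that is itself an SREBP target, stood at 36.8, 40.5, 38.2, 24.4 and 43.5 CPM, so its day 2 value lay within 1.04-fold of quiescent. Stard4, a carrier of cholesterol between membranes, moved with the enzymes, at 23.1, 26.1, 64.4, 9.91 and 19.1 CPM.

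The summed fatty acid enzymes took a different course, with their lowest level at day 1, but the members did not all follow the sum. Of the 7, 3 were lowest at day 1 (Scd1, Scd2 and Acaca), 3 at day 4 (Fasn, Elovl6 and Fads1) and 1 in the quiescent library (Fads2). At day 2, 5 of the 7 were at their highest, and the other 2 at day 14. The 7 enzymes summed to 259, 166, 379, 241 and 301 CPM. Against quiescent this was 1.56-fold lower at day 1 (1.48 to 1.64) and 1.47-fold higher at day 2 (1.40 to 1.54). The day 4 sum was 1.07-fold lower (1.02 to 1.13) by total UMIs, a direction that TMM scaling turned (a ratio of 1.002). Scd1 and Scd2, the desaturases that make monounsaturated fatty acids, gave 62.4% of these UMIs in the quiescent library and 38.0% at day 1. Scd2 stood at 99.7, 31.6, 139, 84.5 and 115 CPM, and it was the member called lower at day 1, 1 of 25 tested against 24.3% of 6045 genes, at 3.16-fold (2.88 to 3.46). Scd1 stood at 61.7, 31.5, 73.8, 83.0 and 83.6 CPM, 1.96-fold lower at day 1 (1.76 to 2.18), just inside the limit. Both recovered by day 2, when Scd2 was 4.40-fold (4.14 to 4.68) and Scd1 2.34-fold (2.19 to 2.51) over day 1.

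Elovl6, which lengthens palmitate, behaved like a sterol enzyme, at 22.7, 36.0, 60.7, 17.0 and 22.2 CPM. It was 2.67-fold higher than quiescent at day 2 (2.28 to 3.15). Fasn, the fatty acid synthase, stood at 18.9, 21.2, 27.8, 10.9 and 22.2 CPM. Fads1, a desaturase of polyunsaturated fatty acids, stood at 36.3, 29.7, 56.1, 26.4 and 37.3 CPM. Acaca, which makes malonyl-CoA, stayed between 12.7 and 17.2 CPM, and Fads2, the desaturase that works with Fads1, between 3.15 and 8.41 CPM. Among the acetyl-CoA genes, Acly, which cleaves citrate, stood at 77.0, 69.6, 73.6, 43.1 and 61.7 CPM and so did not share the day 2 peak. Acss2, which activates acetate, stayed between 3.16 and 13.4 CPM. The UMIs of the sterol enzymes over those of the fatty acid enzymes, a ratio that library scaling does not touch, was 3.12 before injury (2.96 to 3.28). It was 7.12 on day 1 (6.94 to 7.30), 6.13 on day 2 (6.01 to 6.25), 2.09 on day 4 (2.04 to 2.15) and 2.62 on day 14 (2.52 to 2.72).

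Neighbouring genes of the pathway were taken from lists chosen with earlier results of these data known. The shares of all genes called at day 2 against quiescent, 11.3% higher and 17.4% lower, apply to each count at day 2. Of 12 genes of isoprenoid use and sterol electron transfer, 3 of 8 tested were higher at day 2 and 2 were lower. The higher ones were Tmem97, a sterol-regulated membrane protein, at 41.5 CPM in the quiescent library and 117, 171, 69.8 and 41.6 CPM after it, Cyb5b, a cytochrome b5, at 31.1, 86.5, 91.2, 39.8 and 32.3 CPM, and Cyb5r3. From day 1 to day 2, Fdx1 fell furthest in this list, from 17.2 to 8.09 CPM, followed by Fnta, from 22.9 to 11.4 CPM. At day 14 they stood at 28.1 and 34.6 CPM. Of 8 genes that sense and export sterol, 2 of 6 tested were lower at day 2 and 1 was higher. Abca1, the cholesterol efflux pump, stood at 34.5, 6.02, 13.1, 34.3 and 25.6 CPM, and Mylip, which degrades lipoprotein receptors, at 36.0, 7.71, 12.0, 34.1 and 35.3 CPM. Both genes were called higher from day 2 to day 4, at 2.62-fold (2.34 to 2.95) and 2.84-fold (2.52 to 3.20), where 6.93% of all genes were. Lpcat3, which remodels phospholipids, was the one higher, 2.21-fold (1.94 to 2.54). None of the 3 tested genes of SREBP processing was called at day 2, and 1 was higher and 1 lower both of 6 tested genes of fatty acid elongation and supply and of 10 of fatty acid oxidation.

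Sterol sums were also higher at days 1 and 2 than before injury in the other classes. Tenocytes, of which the libraries held 126, 183, 99, 182 and 804, had sterol sums of 751, 1083, 2006, 529 and 577 CPM, a 2.67-fold day 2 ratio (2.38 to 2.997). The day 2 tenocyte values of Ebp, 202 CPM, and Fdft1, 102 CPM, were 2.37-fold (1.68 to 3.42) and 5.75-fold (2.87 to 13.1) over quiescent. At day 14 the tenocyte sum was 1.37-fold below that of progenitor cells (1.31 to 1.43), while in the quiescent library the sums lay within 1.07-fold of each other (0.967 to 1.19). Acly, Scd1 and Elovl6 were at least 2-fold lower in day 14 tenocytes than in progenitor cells, 3 of 22 members tested against 9.89% of 6100 genes. Acly was lower in tenocytes in each of the 5 libraries, at 29.6, 42.2, 45.0, 30.5 and 23.9 CPM. Markers moved in the tenocyte class after injury. Tnmd stood at 4435, 969, 1046, 1580 and 6432 CPM. Ly6a stood at 211, 528, 1050, 954 and 195 CPM, and Pdgfra had a UMI in 11.9%, 29.0%, 30.3%, 29.7% and 10.3% of tenocytes. Pdgfra, Dcn, Col1a1, Ly6a and Cd34 summed to 35392 CPM before injury and 15637 and 19977 CPM at days 1 and 2. The part of progenitor transcripts in the tenocyte sums was not tested. The day 14 cells just inside the tenocyte limit (5 or 6 marker UMIs, 21 cells) summed to 669 CPM of sterol enzymes (526 to 840), and those just outside it (3 or 4, 66 cells) to 779 CPM (698 to 867).

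Mural cells, the pericytes and smooth muscle cells of vessel walls, already stood at their highest sterol level at day 1. Their 112, 97, 42, 114 and 243 cells had sterol sums of 808, 2637, 2408, 463 and 656 CPM, with the day 1 and day 2 sums within 1.09-fold of each other. At day 1 the sum was 3.26-fold over quiescent mural cells (2.76 to 3.88) and 2.23-fold over the progenitor cells of the same library (2.10 to 2.37). Of 26 members tested at day 1, 15 were at least 2-fold higher than in quiescent mural cells (12.5% of 7168 genes), Hmgcs1 at 4.47-fold (2.57 to 8.399) and Fdps at 4.15-fold (2.87 to 6.18) among them. Against day 1 progenitor cells 9 of 26 tested were higher, against 18% of 5798 genes. They were Hmgcs1, Mvk, Pmvk, Fdps, Fdft1, Msmo1, Nsdhl, Dhcr7 and Scd2. Nsdhl and Pmvk, which by total UMIs had not risen in progenitor cells by day 1, stood at 89.2 and 65.1 CPM in day 1 mural cells against 25.4 and 23.2 CPM. Mural cells had a median of 1427 UMIs before injury and 3028 on day 1, and the part of depth in this difference was not tested. Progenitor markers moved in the mural class too. Pdgfra, Dcn, Col1a1, Ly6a and Cd34 summed to 3412 CPM in quiescent mural cells, 3367 CPM on day 1 and 7215 CPM on day 2, and Pdgfra had a UMI in 1.79%, 10.3% and 45.2% of them. The part of these transcripts in the mural sums was not tested. On day 1 the mural cells just inside the limit (5 or 6 marker UMIs, 8 cells) summed to 2099 CPM of sterol enzymes (1669 to 2605) and the cells just outside it (3 or 4, 6 cells) to 1597 CPM (1245 to 2018). On day 14 those sums were 1419 CPM (1018 to 1925, 9 cells) and 398 CPM (191 to 732, 8 cells).

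The fatty acid enzymes were scarcer in uninjured mural cells. They summed to 96.6 CPM in the quiescent library, from 19 UMIs, against 259 CPM in progenitor cells, 2.68-fold lower (1.71 to 4.46). Scd1, Scd2, Fads1 and Insig1 were the 4 members called lower there, of 24 tested against 13.1% of 7306 genes, on 2, 3, 0 and 2 mural UMIs. At day 14, with 97 UMIs of the fatty acid enzymes, the sum was 119 CPM, 2.54-fold below progenitor cells (2.07 to 3.14). Scd1, Scd2, Fads1, Elovl6, Fasn and Insig1 were the 6 members called lower, of 23 tested against 11.1% of 6744 genes. Acss2 was higher in day 14 mural cells, at 33.0 against 13.4 CPM, 2.46-fold (1.58 to 3.71).

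Birc5, Mki67 and Top2a, genes of dividing cells, summed to 292 CPM in day 2 progenitor cells and to 4.90 to 99.1 CPM in those of the other libraries. Cells with at least 1 UMI of Birc5, Mki67 or Top2a made up 37.6% of day 2 progenitor cells. The 905 cells with such a UMI had a sterol sum of 2446 CPM and the 1502 without one 2180 CPM, a ratio of 1.12 (1.11 to 1.14). None of the 27 members tested reached 2-fold in either direction, where 6.19% of 5425 genes were higher and 4.28% lower. Acat2 came nearest, at 1.68-fold higher (1.56 to 1.81), and Insig1 was 1.60-fold lower (1.42 to 1.80). The cells with mitotic UMIs were also deeper, at a median of 17709 against 8403 UMIs. Within 4 equal bins of the cells by total UMIs, from the shallowest to the deepest, the sterol ratio was 0.9497 (0.852 to 1.06), 0.903 (0.856 to 0.952), 0.899 (0.875 to 0.924) and 0.852 (0.833 to 0.873). The interval of the shallowest bin covers 1. The fatty acid ratio was 0.990 over all cells and 0.886, 0.859, 0.915 and 0.868 within the bins.

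**Figure D3:**
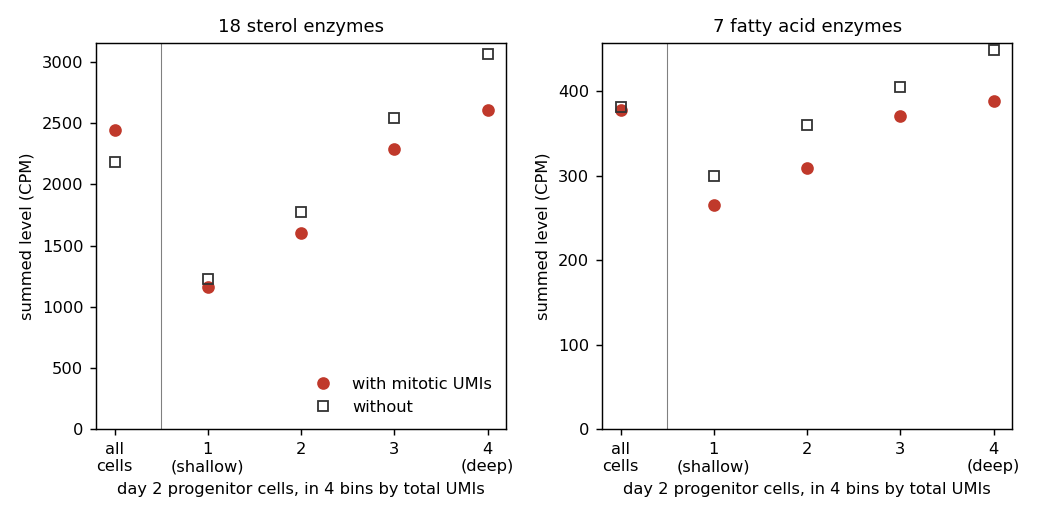
Summed CPM (vertical) of the 18 sterol enzymes (left) and the 7 fatty acid enzymes (right) in day 2 progenitor cells with (filled) and without (open) a UMI of Birc5, Mki67 or Top2a, over all cells and within 4 equal bins of cells by total UMIs (horizontal). Over all cells the sterol sum is higher with mitotic UMIs, 2446 against 2180 CPM, and in the deepest bin it is lower, 2610 against 3062 CPM.

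Depth and sterol level moved together at day 2. From the shallowest to the deepest bin the day 2 sterol sum was 1221, 1739, 2426 and 2703 CPM. The day 1 sums were 853, 1087, 1246 and 1257 CPM and the day 4 sums 486, 454, 448 and 567 CPM. The shallowest day 2 bin, with a median of 5058 UMIs, summed to 1221 CPM, and the deepest quiescent bin, with a median of 5479 UMIs, to 830 CPM. Cells thinned to 2500 UMIs each gave a day 2 ratio of 2.49 over quiescent. At day 4 the mitotic cells held more sterol transcript, 1.34-fold over the rest (1.29 to 1.39), with Cyp51 at 2.06-fold (1.75 to 2.42). In the deepest day 4 bin the ratio was 1.39 (1.32 to 1.45), and in the other bins 0.874, 0.732 and 0.917.

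The median progenitor cell held more sterol enzyme UMIs at day 2 than in the other libraries. Each library holds different cells, so the share of cells that rose cannot be read from these values. After thinning to 2500 UMIs, which leaves out 390, 65, 0, 63 and 398 shallower cells, a cell held a mean of 2.03 sterol enzyme UMIs in the quiescent library and 2.78, 5.06, 1.197 and 1.94 at days 1, 2, 4 and 14. The median went from 1 to 2, 4, 1 and 1, and the cells with none were 28.7%, 21.0%, 12.0%, 40.2% and 32.1%. No class here should lack these housekeeping genes, so a background from free RNA could not be measured. The spread was wider than counting alone gives, with a variance of 3.02, 3.25, 4.63, 2.48 and 4.02 times the mean, where counting error gives 1. For the fatty acid enzymes it was 1.10 to 1.33 times the mean. Cells with 10 or more sterol UMIs were 1.92% of quiescent cells, 16.5% at day 2 and 2.57% at day 14.

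**Figure D4:**
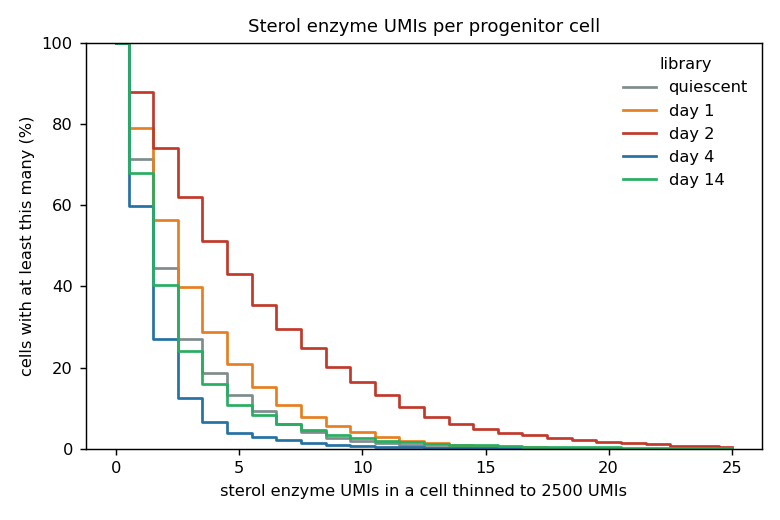
Share of progenitor cells (vertical, in percent) holding at least a given number of UMIs of the 18 sterol enzymes (horizontal) after thinning every cell to 2500 UMIs, with 1 line per library. The day 2 line lies above the others, with 16.5% of cells at 10 or more, and the day 4 line is lowest, with 40.2% of cells at 0.

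The enzymes were high in the same cells. Thinned day 2 cells were ranked by the sum of the other sterol enzymes, and each gene was compared between the 601 highest and the 601 lowest cells. Of the 18 sterol enzymes 17 were at least 2-fold higher in the highest cells, with a median of 7.56-fold, against 4.59% of 5380 genes outside the 31. Idi1 was 9.38-fold higher (7.11 to 12.6) and Sqle 10.5-fold (7.45 to 15.2). Ebp was the exception, at 1.45-fold (1.19 to 1.77). Ebp was also the lowest of the sterol enzymes with 20 or more UMIs at day 1 (1.27-fold), day 4 (1.04-fold) and day 14 (1.26-fold). In the quiescent library Ebp was 2.12-fold higher, and Acat2 was lowest at 1.56-fold. At day 2, Stard4 was 5.62-fold higher (3.68 to 8.88), Insig1 2.27-fold (1.58 to 3.29), Srebf2 1.51-fold (0.982 to 2.36) and Srebf1 1.14-fold (0.710 to 1.83). In the quiescent library and at days 1, 4 and 14 the Srebf2 folds were 2.56, 2.22, 2.45 and 2.66. Those of Srebf1 were 1.85, 0.915, 1.49 and 1.84.

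Fatty acid enzymes went with the sterol enzymes in day 2 cells, 6 of 7 at 2-fold or more with a median of 3.29-fold. Elovl6 was 4.16-fold higher (2.89 to 6.13), Scd2 3.44-fold (2.75 to 4.35) and Scd1 1.69-fold (1.29 to 2.22). At day 4 none of the 7 reached 2-fold, while 12 of 16 sterol enzymes did. The sterol enzymes were high together in every library, with medians of 3.83-fold in the quiescent library, 4.64-fold at day 1, 2.89-fold at day 4 and 5.77-fold at day 14. The shares of genes outside the 31 that reached 2-fold there were 1.81%, 0.948%, 0.62% and 1.42%. The cells of each time point come from 1 library, and doublets were not removed.

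**Figure D5:**
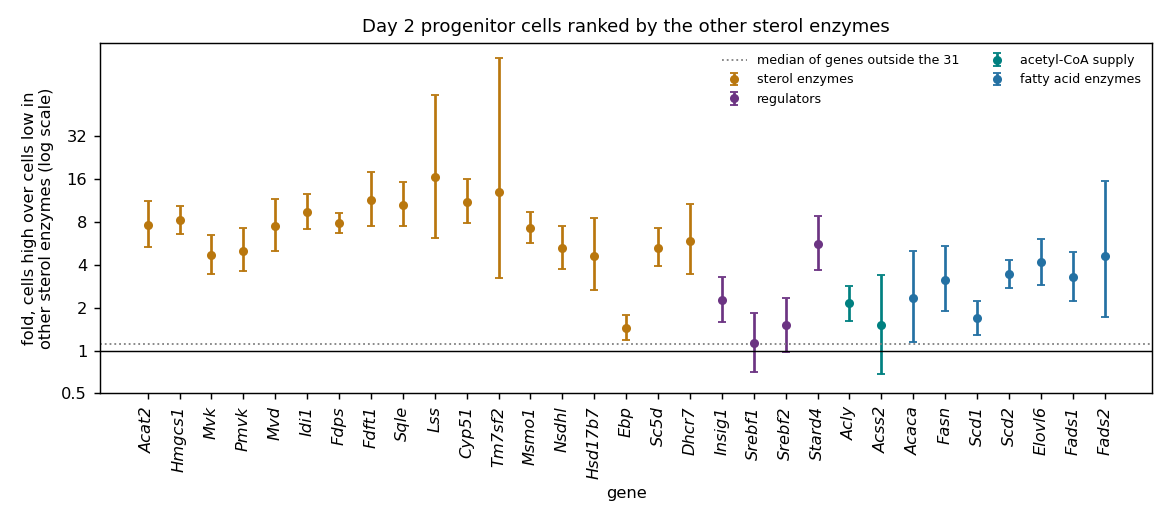
Fold (vertical, log axis) of each of the 31 genes (horizontal) in the 601 highest over the 601 lowest thinned day 2 progenitor cells by summed UMIs of the other sterol enzymes, coloured by branch; bars are exact 95% intervals for counting error, and the dotted line is the median of the genes outside the 31. Of the sterol enzymes 17 lie at 2-fold or more and Ebp lies at 1.45-fold.

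Sterol levels also differed between kinds of progenitor cell within a library. The marker limits for these kinds were set after values were seen. They were 5 UMIs for Cxcl13 and Procr, 15 for Postn and Cthrc1, 10 for Cxcl5, 1 for Stmn4, 2 for Pi16 and 3 for the others named here. Ratios within depth bins are given over bins with at least 20 of the cells named. Cells with UMIs of Dmkn, Sbsn and Krtdap had lower sterol sums over all depths than the other progenitor cells in the 5 libraries, by 1.58-fold in the quiescent library (1.44 to 1.73), 1.12-fold, 1.21-fold and 1.41-fold at days 1, 2 and 4, and 1.52-fold at day 14 (1.42 to 1.63). Within depth bins their ratio stayed below 1 in the quiescent, day 4 and day 14 libraries but ran from 0.823 to 1.102 at day 1 and from 0.687 to 1.07 at day 2. Cells with Cxcl13 and Procr were lower in the quiescent library, by 1.88-fold (1.63 to 2.19), and at days 2, 4 and 14, by 1.56-fold, 1.37-fold and 1.42-fold, but at day 1 were 1.09-fold higher. Within depth bins their ratio stayed below 1 in the quiescent, day 2 and day 14 libraries but ran from 0.955 to 1.39 at day 1 and from 0.594 to 1.07 at day 4. At day 1, cells with Il1rl1 and Serpinb2 had 796 CPM against 1260 CPM in the rest, 1.58-fold lower (1.54 to 1.63), and within each depth bin the ratio lay between 0.422 and 0.668. Day 1 cells with Hsd11b1 and Cxcl14 had 1453 against 985 CPM, 1.48-fold higher (1.45 to 1.502), and 1.204 to 1.51 within the depth bins. Other kinds were higher at day 1 as well. Cells with Postn and Cthrc1 were 1.40-fold higher (1.34 to 1.45), and 1.31 to 1.54 within the depth bins. Cells with Cxcl5 were 1.18-fold higher (1.16 to 1.20), and 0.993 to 1.18 within them. Cells with Stmn4 had higher fatty acid sums than the others in each library, by 1.12-fold to 1.35-fold. The fatty acid ratio of cells with Pi16 was 1.17 in the quiescent library and 1.15, 1.04, 1.18 and 0.942 at days 1, 2, 4 and 14. Fatty acid ratios of these kinds were not taken within depth bins.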

How the data were processed

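For each of 5 libraries the authors deposited a matrix of UMI counts by gene and cell barcode, made with the 10x Chromium 3' v2 chemistry from tdTomato-positive cells sorted by flow cytometry, per the labels' protocols. Per the submitters' processing notes, Cell Ranger and the mm10 build were used, and no version or cell calling rule is given in the sources used here. Filtering at 500 genes or more and 10% mitochondrial UMIs or less kept 17085 of 17213. Doublets were not removed, and 6 cells past both class limits were left out. Raw counts were summed per library and class and scaled to CPM. The 95% intervals are exact: conditional binomial for ratios and Poisson for CPM, for counting error only. Log2 ratios carry 1 CPM in both sums, and a gene at 0 was set at 3 counts for a call. No test was made, since each group is 1 library. TMM factors (edgeR 4.0.16) and DESeq2 1.42.0 size factors (R 4.3.3) served as alternative scaling only. Calls and intervals were run on simulated sums with Poisson counting error only, so that check does not cover the wider spread between cells. The members, gene lists and comparisons were chosen with earlier results of these data known. All members were described, with values for those at 20 CPM or more in a library of progenitor cells. Up to 3 genes were named from each neighbouring list by their day 2 calls, with Fdx1 and Fnta added for their fall from day 1 to day 2. Python 3.11.15, numpy 2.4.6, scipy 1.17.1 and pandas 2.3.3 were used. Promoter windows and the shares of genes with a motif came from RefSeq's GRCm38.p6 table, with chr18 left out before matching. The 7 members without an entry in what remained were Fdps, Fdft1, Sqle, Stard4, Scd1, Scd2 and Fads1.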

Additional observations from a re-analysis of the deposited data

Results flagged for a closer look

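Several values moved in opposite directions in different cell classes of the same libraries, and none of these differences was tested. All but 1 involve mural cells, whose quiescent sums rest on few UMIs. Ebp at day 1 against quiescent had a log2 ratio of -0.12 in progenitor cells and 0.80 in tenocytes (80.7 and 149 CPM at day 1). Scd2 at day 1 had -1.63 in progenitor cells and -1.61 in tenocytes, and 2.08 in mural cells, from 3 quiescent and 28 day 1 mural UMIs. Scd2 at day 4 had -0.24 in progenitor cells and 2.29 in mural cells, from the same 3 UMIs. Fads1 at day 1 had -0.28 in progenitor cells and -0.92 in tenocytes. In mural cells it went from 0 UMIs to 13, so its log2 ratio there depends on the added CPM. The 7 fatty acid enzymes at day 1 summed to -0.64 in progenitor cells and -0.94 in tenocytes, and to 0.93 in mural cells, from 19 UMIs to 77. The 4 regulators at day 1 summed to -0.33 in progenitor cells and 0.79 in mural cells, from 23 UMIs to 84. All these log2 ratios are by total UMIs. TMM and DESeq2 scaling raise the day 1 progenitor ratios by 0.31 and 0.36. Either shift exceeds the day 1 progenitor falls of Ebp and Fads1, and the DESeq2 shift exceeds that of the regulators. Scaling between time points was not varied for tenocytes or mural cells.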

How the results depend on the processing

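No paired analysis was possible because each group is 1 library. The alternatives were TMM and DESeq2 scaling, thinning to 2500 UMIs, equal weight for each cell, leaving out the deepest 5% of cells, class limits of 3 and 10 marker UMIs, no cell filter and no filter on low values. For sums of enzymes, 72 of 106 values stayed within their intervals, and for counts of members 27 of 32 stayed within 1.5 times. For single members past 2-fold, 170 of 208 stayed within their intervals and none fell under 2-fold. The sterol ratio to quiescent was 1.82 (TMM), 1.88 (DESeq2) and 1.37 (thinned) at day 1. At day 2 it was 3.25 (TMM), 3.30 (DESeq2), 2.49 (thinned), 2.80 (deepest cells left out) and 2.602 (equal weight). At day 4 it was 0.673 (TMM), 0.668 (DESeq2), 0.589 (thinned) and 0.585 (deepest cells left out). The fatty acid ratio was 0.797 (TMM) and 0.824 (DESeq2) at day 1, and 1.65 (TMM), 1.68 (DESeq2), 1.38 (thinned) and 1.38 (equal weight) at day 2. At day 4 it turned from 0.933 to 1.002 with TMM and was 0.993 with DESeq2. Day 2 cells with mitotic UMIs against those without had a sterol ratio of 1.10 (TMM), 1.27 (thinned), 1.23 (equal weight) and 1.07 (at least 3 mitotic UMIs). Within depth bins, an alternative chosen after seeing the data, it turned to 0.9497, 0.903, 0.899 and 0.852. The fatty acid ratio of these cells was 1.03 (equal weight), 0.939 (at least 3 mitotic UMIs) and 0.886, 0.859, 0.915 and 0.868 within the bins. Members called higher at day 1 numbered 2 and, with TMM and DESeq2, 6 and 7. Members called lower at day 1 numbered 1 and, after thinning, 2, and members called higher at day 4 numbered 0 and 1 with either scaling. Causes of these moves were not tested beyond what each alternative changes. Scaling was varied for tenocytes against progenitor cells, where the sterol ratio was 0.953 (TMM) and 0.968 (DESeq2) before injury and 0.712 and 0.714 on day 14, and not for mural cells, whose small UMI totals limit single genes.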

Other observations

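Among 2899 genes with a mean of at least 50 CPM, those whose level ranked most like the summed sterol enzymes over the 15 sums of library and class were Lsm4 (Spearman's rho 0.79), Hsp90ab1 (0.76), Polr2h (0.76), Nars (0.76), Dbi (0.75), Tmem97 (0.75), Il6 (0.74), Txn1 (0.73), Preb (0.72) and Tkt (0.72). Dbi encodes a protein that binds acyl-CoA, Tkt an enzyme of the pentose phosphate pathway and Il6 a cytokine. Il6 ranged from 28.1 to 923 CPM over the 15 sums and Dbi from 287 to 762 CPM. The 15 points share 5 libraries and their depths, so these values are a description and carry no p.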
